A study of Homo sapiens with 21 samples.

Results

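The genes of cholesterol and fatty acid synthesis were examined in 21 RNA-seq libraries of 2 human cancer cell lines, FADU from a head and neck cancer and BFTC909 from a cancer of the upper urinary tract. The list held 32 genes chosen by their role, with earlier results of these data known. Of these, 31 could be named in the 4 tables of values. The tables hold 19505, 17232, 18316 and 15719 genes for FADU knockdown, BFTC909 knockdown, FADU overexpression and FADU METTL4 mutant cells. ACACA, which encodes acetyl-CoA carboxylase, was not analysed here because no row of the tables carried the identifier that its symbol is paired with. The list has 4 oxygen-requiring sterol steps, 15 other sterol steps, 7 fatty acid synthesis genes, 6 of them analysed, and 6 regulators of SREBP together with the sterol carrier STARD4. All 31 genes passed the filter on low values in each of the 3 tables that were tested.

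In the knockdown experiments each line had 3 groups of 2 libraries: cells with scrambled siRNA (Scr-si) in normoxia (18% O2), Scr-si cells in hypoxia (1% O2), and METTL4-si cells in hypoxia. The overexpression experiment compared FADU cells in normoxia that carried a control vector, METTL4 (METTL4-OE) or the lncRNA RP11-390F4.3 (RP11-390F4.3-OE), again with 2 libraries each. The study made stable clones by transfection, and whether the libraries of a group came from separate clones is not stated. The mutant experiment had 1 CRISPR control library and 2 clones of FADU cells, each derived from a single cell, in which the catalytic site of METTL4 was changed by prime editing, all in hypoxia. The exposure to either oxygen level lasted 18 h. METTL4 is a methyltransferase that the study examined as a writer of N6-deoxyadenosine methylation in hypoxic nuclei, and no group here was a METTL4 mutant or an overexpression line at the other oxygen level. The 2 columns of RP11-390F4.3-OE were assigned by elimination, since their own name occurs in no sample label.

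Cholesterol is built from acetyl-CoA through mevalonate and squalene, and several later steps consume molecular oxygen, as do the desaturases that place double bonds in fatty acids. The transcription factors SREBP-1 (SREBF1) and SREBP-2 (SREBF2) turn on most genes of both pathways. SCAP escorts them from the endoplasmic reticulum to the Golgi for cleavage when sterol is low, while INSIG1 and INSIG2 hold SCAP back when sterol is plentiful. Both INSIG proteins also promote the sterol-dependent degradation of pathway enzymes, and hypoxia is known to act on INSIG levels.

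The values are CPM scaled by the TMM method, and the libraries had 17.8 to 25.4 × 1e6 reads on genes. Differences are given as log2 of (value + 1), with the standard error (SE) of the limma fit, and a gene was called at 1.3-fold or more with an adjusted p under 0.05 over all genes tested. METTL4 itself was at 26.6 and 25.3 in Scr-si hypoxia and at 24.2 and 27.1 in the FADU libraries labelled METTL4-si (log2 difference -0.02, limma adjusted p = 0.90). In BFTC909 it was at 19.0 and 15.6 against 14.4 and 12.2 (log2 difference -0.36, limma adjusted p = 0.072), so neither line had a called decrease of the targeted RNA. CA9, a hypoxia-induced carbonic anhydrase, was at 31.0 and 37.8 in FADU Scr-si hypoxia against 2.33 and 2.55 in normoxia and 1.87 and 2.22 under METTL4-si. METTL4-OE raised METTL4 from 35.4 and 32.7 to 158 and 139. METTL4 RNA was 12.5 in the CRISPR control and 15.9 and 10.6 in the clones. CA9 was at 29.8 in the same control and at 10.4 and 15.2 in the clones, all in hypoxia. The RP11-390F4.3 transcript itself was not analysed here.

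Some libraries carried markers of other cells. All 6 squamous markers were present in FADU, with sums of 1918 to 3563 in the knockdown table. Of 9 luminal breast markers 6 had rows in that table, and their sum was 99.5 in FADU Scr-si normoxia replicate 1 and 503 in METTL4-si replicate 1, against 4.51 to 9.17 in the other 4 libraries, where TFF1 was listed at 0. Fibroblast COL3A1 was at 20.3 and 109 in the same 2 libraries. COL1A1, the only other fibroblast marker with a row there, was at 5.24 and 6.62 in them and at 4.40 to 5.83 in the other 4. RP11-390F4.3-OE replicate 2 had a sum of 40.3 against 4.37 to 6.81 in the other 5 libraries of its table. In BFTC909, urothelial and simple epithelial markers were low, with a sum of 22.0 to 85.2 in 5 libraries and 1249 in METTL4-si replicate 2 (KRT8 715, GATA3 128), while fibroblast markers summed to 1013 to 4642 in all 6. Of the luminal breast markers 2 had rows in BFTC909. GREB1 was at 121 in METTL4-si replicate 2 and 10.6 in replicate 1, against 1.52 to 3.20 in the Scr-si libraries. CA12 was at 285 to 1017 in all 6. The uroplakins had no row in the BFTC909 table, so the labelled origin of this line is not reflected in its defining markers. Endothelial, leukocyte and adipocyte or liver markers summed to 0 to 13.8 in every library. The part of the other cells in the results was not tested. Counts of called members without these libraries are given for each comparison that holds one of them. For the lists of other pathway genes they are given only in part.

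In normoxic FADU cells, compared per kb of exon, FASN (173 ± 10.5 SD, n = 2) and SCD (168 ± 0.48) had the highest levels of the members and did not differ beyond their spread. SQLE followed at 102 ± 2.91 and ACLY at 69.0 ± 0.56. The lowest were TM7SF2 (1.46 ± 0.73) and FADS2 (1.79 ± 0.044), which also lie within each other's spread. In BFTC909 normoxia SCD was again at the top (76.5 ± 3.01 per kb), followed by ACLY (70.7 ± 0.83).

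In FADU cells hypoxia raised sterol synthesis genes, the 2 INSIG genes and the sterol carrier, and lowered ELOVL6 and SCAP. Of the 31 members 14 were called higher, where 9.73% of all 16324 tested genes were, and 2 were called lower against 9.65% of all genes. The median log2 difference of the members was 0.25, beside -0.03 for all genes. In bulk RNA, fewer cells with a transcript and less of it per cell cannot be told apart. Nothing states that the libraries of a group are separate cultures, so the p-values may measure technical spread. Among the oxygen-requiring sterol steps 3 of 4 rose, among the other sterol steps 6 of 15, among the fatty acid genes 2 of 6 rose and 1 fell, and among the regulators 3 of 6 rose and 1 fell.

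INSIG2, at chr2:118846028-118868573 in GRCh37, rose most. It had 25.8 and 30.1 in normoxia and 83.0 and 87.8 in hypoxia (log2 difference 1.58 ± 0.13 SE, limma adjusted p = 0.00076). INSIG1 rose from 126 and 144 to 298 and 367 (log2 difference 1.29 ± 0.11 SE). STARD4, which carries sterol between membranes, rose from 82.4 and 95.3 to 191 and 218 (log2 difference 1.19 ± 0.15 SE). In none of the 3 did the libraries of normoxia and hypoxia overlap.

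The genes of the SREBP factors themselves were not called. SREBF1 was at 269.9 and 242 in normoxia and at 205 and 224 in hypoxia, and SREBF2 was at 494 and 478 against 465 and 504. SCAP fell from 82.8 and 81.3 to 54.4 and 61.3 (log2 difference -0.50 ± 0.09 SE, limma adjusted p = 0.010). Its call did not hold with every library left out in turn, while that of ELOVL6 did.

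HMGCS1, the cytosolic HMG-CoA synthase at chr5:43287572-43313614 in GRCh37, went from 246 and 272 to 437 and 509 (log2 difference 0.86 ± 0.10 SE). MVD, mevalonate diphosphate decarboxylase, went from 28.8 and 24.8 to 50.3 and 54.7, and IDI1, isopentenyl diphosphate isomerase, from 69.1 and 68.5 to 113 and 131. MVK, mevalonate kinase, went from 38.8 and 37.8 to 59.1 and 66.0. Lanosterol synthase (LSS) and HSD17B7, which acts in the removal of sterol methyl groups, were also called higher. ACAT2, FDPS and FDFT1, enzymes of the first and middle steps, were above both normoxic libraries without being called, with log2 differences of 0.23 ± 0.13 SE, 0.25 ± 0.08 SE and 0.33 ± 0.08 SE.

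Of the enzymes that use oxygen, SQLE, the squalene epoxidase, rose from 431 and 449 to 589.6 and 654. MSMO1, the methylsterol monooxygenase, rose from 108 and 119 to 173 and 205, with a log2 difference of 0.73 ± 0.11 SE. SC5D, a sterol desaturase, rose from 60.8 and 64.3 to 84.8 and 97.0. CYP51A1, lanosterol demethylase, was at 8.35 and 10.1 against 6.25 and 8.71, but about 68.2% of its exon bases are shared with another annotated gene on the same strand, and its low values are uncertain. EBP also shares 36.4% of its exon bases with another same-strand gene.

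Among the fatty acid genes, ACLY, which makes cytosolic acetyl-CoA, rose from 357 and 361 to 494 and 558. SCD, stearoyl-CoA desaturase, rose from 879.6 and 883 to 1276 and 1478. ELOVL6, a fatty acid elongase, fell from 46.6 and 47.1 to 26.1 and 24.8 (log2 difference -0.86 ± 0.07 SE, limma adjusted p = 0.00082). FASN, FADS1 and FADS2 differed by 0.11 or less in either direction on the log2 scale. Without Scr-si hypoxia replicate 2 only 6 members were called higher, and leaving out any other Scr-si library gave 9, while MVK, HMGCS1, INSIG2, HSD17B7, STARD4 and INSIG1 were called every time. Without the 2 FADU libraries with luminal breast markers 14 were called higher and 3 lower, in a fit whose spread comes from the Scr-si hypoxia libraries alone and is assumed for the single libraries left in the other groups.

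**Figure D1:**
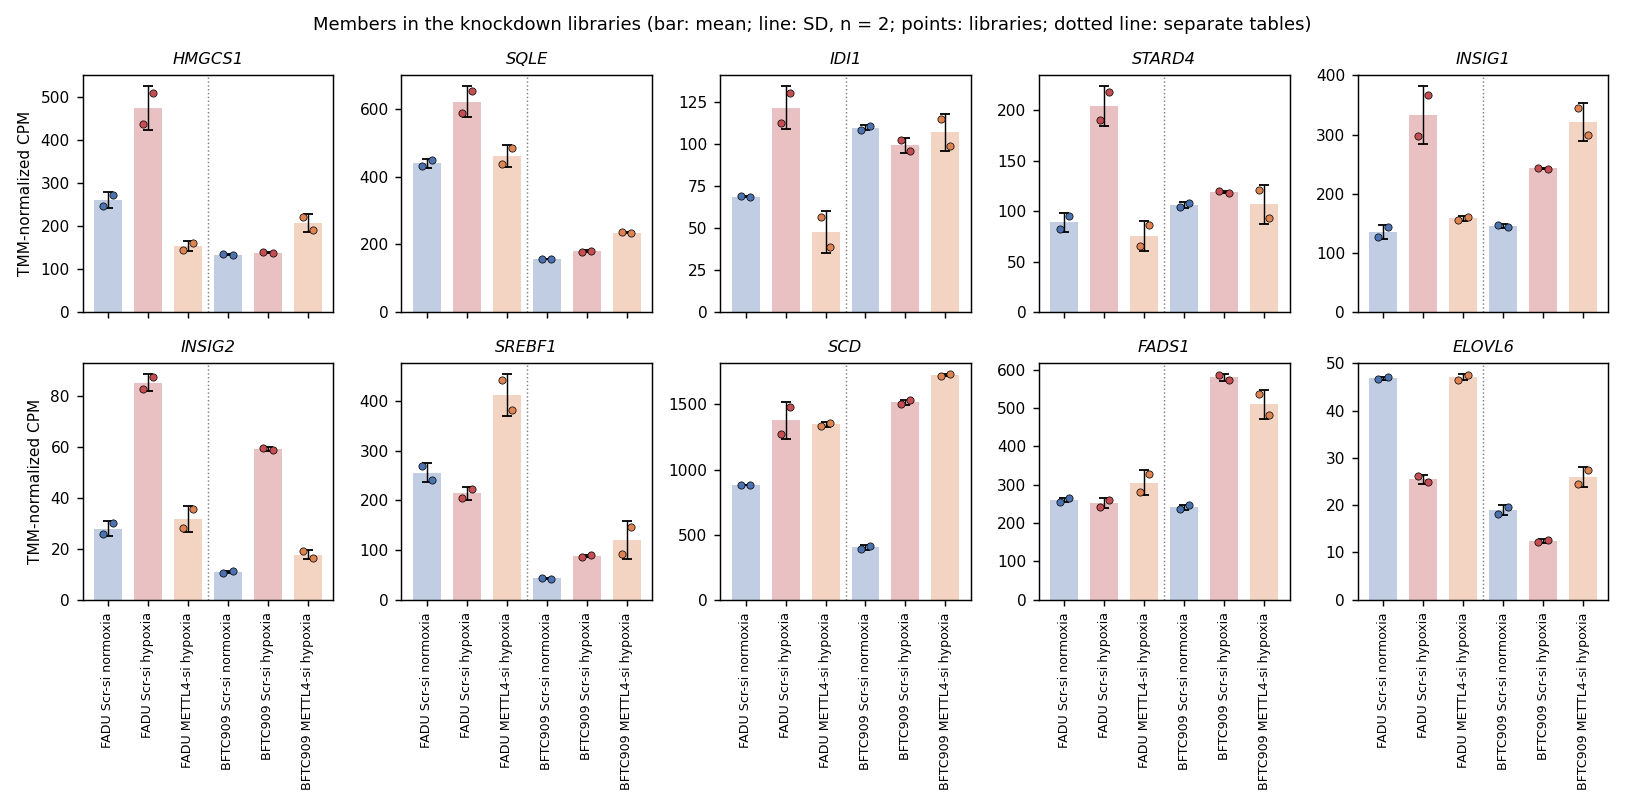
Values (TMM-normalized CPM, each panel with its own axis starting at 0) of 10 members in the knockdown libraries. Bars are means, lines the SD of n = 2 and points single libraries. FADU HMGCS1, STARD4 and INSIG2 were high only in Scr-si hypoxia among the 3 FADU groups, and BFTC909 SCD and FADS1 were high in both hypoxic groups.

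In the FADU libraries labelled METTL4-si, most of these genes were lower than in Scr-si hypoxia, with which the hypoxia comparison shares its libraries. Of 31 members 16 were called lower, against 15.3% of all genes, and 4 were called higher, against 12.5% of all genes. The median log2 difference was -0.39, beside 0.02 for all genes. The called members were 2 of 4 oxygen-requiring steps, 9 of 15 other sterol steps and 2 of 6 fatty acid genes lower, and INSIG1, INSIG2 and STARD4 lower among the regulators.

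HMGCS1 fell furthest, to 145 and 161 (log2 difference -1.62 ± 0.10 SE, limma adjusted p = 0.00022), below both normoxic libraries. STARD4 fell to 65.2 and 86.1 (log2 difference -1.43 ± 0.15 SE), around its normoxic values. IDI1 was at 56.6 and 38.8, also below normoxia. INSIG2 was at 28.0 and 35.5 and INSIG1 at 155 and 161, so the first lay around its normoxic values and the second just above them.

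Other steps of the pathway moved the same way with smaller differences. ACLY was at 308 and 308, FDFT1, squalene synthase, at 109 and 110.1, and FDPS at 116 and 105. SQLE was at 439 and 484, and its log2 difference was -0.43 ± 0.08 SE. SCD, by contrast, stayed at 1334 and 1359, with a log2 difference of -0.03 ± 0.09 SE, and MSMO1 (136 and 157) missed the fold threshold.

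4 members were called higher: SREBF1, SCAP, ELOVL6 and LBR, a sterol reductase that is also a nuclear envelope protein. SREBF1 was at 442 and 382 against 205 and 224 (log2 difference 0.94 ± 0.10 SE, limma adjusted p = 0.0011), above normoxia as well. ELOVL6 was at 46.6 and 47.5, and SCAP at 90.8 and 80.8, both near their normoxic values. TM7SF2, another sterol reductase, was at 19.2 in replicate 1 and 4.54 in replicate 2, so its high value rested on the library with luminal breast markers. Without the 2 libraries with those markers 14 members were called lower and 5 higher, and without Scr-si hypoxia replicate 2 the count of lower members was 9. The 9 members called lower with every library left out in turn were IDI1, FDFT1, MVK, HMGCS1, INSIG2, ACLY, HSD17B7, STARD4 and INSIG1.

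In BFTC909 cells the fatty acid desaturases, the INSIG genes and the SREBP genes rose in hypoxia, with 1 sterol enzyme called. 8 members were called higher, where 17.9% of all 14869 tested genes were, and 1 was called lower, against 18.3%. The median log2 difference of the members was 0.17, beside -0.02 for all genes. Of the 4 oxygen-requiring sterol steps 0 were called by limma and by edgeR on whole reads, and 1, CYP51A1, at an unadjusted p under 0.05. Of the 15 other sterol steps 1 was called, EBP, a sterol isomerase, at 51.6 and 52.8 against 70.7 and 74.6.

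FADS2, the desaturase of polyunsaturated fatty acids that starts their conversion, rose from 72.8 and 80.5 to 388 and 407 (log2 difference 2.36 ± 0.07 SE, limma adjusted p = 6.3e-06). SCD, at chr10:102106990-102124583 in GRCh37, rose from 389.9 and 412 to 1502 and 1530.5 (log2 difference 1.92 ± 0.07 SE). FADS1, another desaturase, rose from 236 and 246 to 586 and 574, while ELOVL6 fell from 18.2 and 19.6 to 12.2 and 12.7. INSIG2 rose from 10.5 and 11.2 to 59.8 and 58.9 (log2 difference 2.35 ± 0.10 SE, limma adjusted p = 1.2e-05). INSIG1 rose from 147 and 144 to 244 and 242. SREBF1 rose from 43.1 and 42.1 to 86.3 and 89.2, and SREBF2 from 152 and 156 to 233 and 239. All 8 calls held with each of the 6 libraries left out in turn.

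HMGCS1 was at 134 and 132 in normoxia and at 139 and 137 in hypoxia, and SQLE was at 157 and 156 against 177 and 182. IDI1 and ACLY had negative differences (-0.14 ± 0.08 SE and -0.30 ± 0.06 SE), the second with a limma adjusted p of 0.0062 but under 1.3-fold. FDFT1, LSS and HSD17B7 were above their normoxic libraries by 0.07 to 0.26 on the log2 scale and were not called.

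In the BFTC909 libraries labelled METTL4-si, INSIG2 was lower and a few members were higher, in a number that depended on the scaling and on single libraries. 6 members were called higher, against 13.2% of all genes, and 1 was called lower, against 11.7%. The 6 included 2 of 4 oxygen-requiring and 2 of 15 other sterol steps. The median log2 difference of the members was 0.23, beside 0.01 for all genes. With libraries centred on their median 3 were called higher and 1 lower, a split of 75.0% to the higher side in place of 85.7%.

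INSIG2 fell from 59.8 and 58.9 to 19.0 and 16.5 (log2 difference -1.69 ± 0.10 SE, limma adjusted p = 5.4e-05), and both values stood above the normoxic 10.5 and 11.2. INSIG1 rose to 344 and 299 from 244 and 242. HMGCS1 rose to 220.3 and 191 from 139 and 137 (log2 difference 0.57 ± 0.08 SE, limma adjusted p = 0.0020). SQLE was at 236 and 233 and MSMO1 at 160.2 and 129. ELOVL6 rose to 24.5 and 27.4, above its normoxic values.

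SREBF1 was at 92.2 and 147 and FASN at 373 and 634, in each case highest in replicate 2, the library with high epithelial markers, and neither was called. TM7SF2 was at 1.22 in replicate 1 and 11.4 in replicate 2. Without METTL4-si replicate 2 the count of higher members was 7, and without METTL4-si replicate 1 it was 10. It was 2 without Scr-si hypoxia replicate 1 and 3 without Scr-si hypoxia replicate 2, and HMGCS1, ELOVL6 and INSIG2 were the members called each time.

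**Figure D2:**
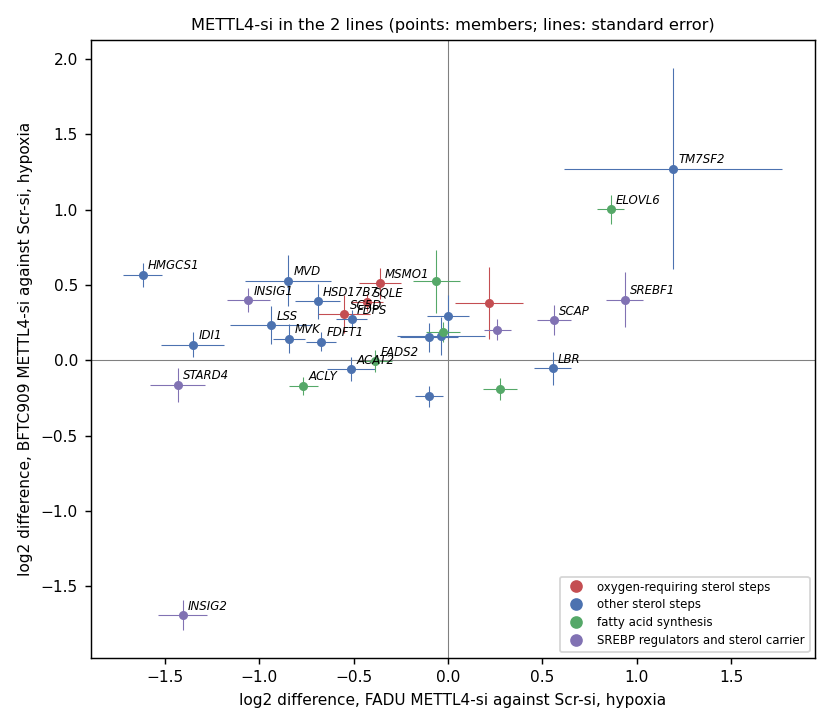
Log2 difference between METTL4-si and Scr-si in hypoxia in FADU (horizontal) and BFTC909 (vertical), with the SE of each fit as lines and members coloured by class. INSIG2 is low in both lines (-1.41 and -1.69), ELOVL6 high in both (0.86 and 1.00), and HMGCS1 low in FADU (-1.62) but high in BFTC909 (0.57).

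INSIG2 rose with hypoxia and was lower again under METTL4-si in both lines, and ELOVL6 did the reverse. In each line both comparisons use the same Scr-si hypoxia libraries, which by itself favours opposite directions. Under METTL4-si in FADU, CA9 was also no higher than in normoxia. Whether the hypoxic state of those cells had a part was not tested. HMGCS1, SQLE, HSD17B7 and INSIG1 were called lower under METTL4-si in FADU and higher in BFTC909. The difference between the lines was not tested, since their tables were normalized separately.

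Overexpression of METTL4 in normoxic FADU cells lowered nearly the whole list. 27 of 31 members were called lower, where 10.5% of all 15644 tested genes were, and 0 were called higher, against 8.00% of all genes. At an unadjusted p under 0.05 the count of higher members was also 0, as it was by edgeR on whole reads. The median log2 difference of the members was -0.91, beside 0.01 for all genes. The 4 oxygen-requiring sterol steps, 13 of the 15 other sterol steps and all 6 fatty acid genes analysed fell. Among them CYP51A1 (mean 6.41 to 3.03) and TM7SF2 (mean 3.55 to 1.38) had low values.

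SCD fell from 906 and 953 to 126 and 130.1 (log2 difference -2.85 ± 0.04 SE, limma adjusted p = 5.5e-14). INSIG1 fell from 143 and 135 to 29.3 and 31.3 (log2 difference -2.16 ± 0.06 SE). SREBF1 fell from 199 and 184 to 57.7 and 50.5, and SREBF2 from 472 and 475 to 208 and 199.6, both without overlap of the libraries. FADS1 fell from 293 and 317 to 88.3 and 89.5.

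DHCR7, the reductase of the last step of cholesterol synthesis, fell from 149 and 142 to 50.0 and 47.1. HMGCS1 fell from 300.0 and 312 to 139 and 141, SQLE from 477 and 465 to 252 and 249.6, and FASN from 1325 and 1303 to 634 and 588. STARD4 fell from 103 and 92.2 to 34.2 and 36.2. The 4 members that were not called were PMVK, LBR, INSIG2 and SCAP. INSIG2 was at 26.8 and 31.0 in the control and at 30.1 and 32.1 under METTL4-OE, and LBR and SCAP had differences of -0.30 ± 0.06 SE and -0.22 ± 0.05 SE, under 1.3-fold.

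Under overexpression of RP11-390F4.3, compared with the same control libraries, INSIG2 and STARD4 were higher and FADS1 and ELOVL6 lower, and members were called about as often as other genes. 3 were called higher, against 16.5% of all genes, and 5 were called lower, against 12.5%. Without RP11-390F4.3-OE replicate 2, which holds luminal breast markers, the counts were also 3 and 5. The median log2 difference of the members was -0.18, beside 0.01 for all genes. With libraries centred on their median 2 were called higher and 8 lower, so fewer of the calls were on the higher side.

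INSIG2 rose from 26.8 and 31.0 to 67.7 and 60.3 (log2 difference 1.12 ± 0.08 SE, limma adjusted p = 6.7e-08), and STARD4 rose from 103 and 92.2 to 143 and 139. PMVK, phosphomevalonate kinase, was at 7.21 and 6.13 against 4.39 and 4.98, and lost its call with centred libraries. FADS1 fell from 293 and 317 to 157 and 148, ELOVL6 from 47.5 and 49.1 to 27.5 and 30.5, and DHCR7 from 149 and 142 to 99.0 and 101. LSS and SC5D also fell. SCD was at 804 and 820.1, below its control libraries by 0.19 ± 0.04 SE on the log2 scale, under 1.3-fold.

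In the METTL4 mutant cells in hypoxia nearly all members were lower than in the control library. With 1 control library there was no test, and a gene counted as lower when both clones lay 1.3-fold or more below the control. That held for 25 of 31 members, against 11.8% of all 15719 genes, and 1 was higher in both clones, against 8.94%. The median log2 ratio of the members was -1.37 in clone 1 and -0.95 in clone 2, beside 0.00 and -0.01 for all genes.

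DHCR7 was at 157 in the control and at 31.9 and 44.0 in the clones. MVD was at 36.1 against 6.47 and 10.1, and INSIG1 at 197 against 46.9 and 62.8. SCD was at 1033 against 252 and 389.9, HMGCS1 at 329 against 87.3 and 169.8, and SQLE at 479 against 155 and 222. Clone 1 had the lower value of each of these genes. All 4 oxygen-requiring steps, 13 of 15 other sterol steps and 5 of 6 fatty acid genes were lower in both clones. These include CYP51A1 (4.34 against 0.80 and 2.30) and TM7SF2 (5.19 against 1.04 and 2.17), whose low values are uncertain.

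SREBF2 was at 437 against 187 and 275, while SREBF1 (152 against 111 and 118) did not pass 1.3-fold in clone 2. INSIG2 was at 38.6 against 21.1 and 31.2, and the second clone was less than 1.3-fold lower. LBR (64.7 against 72.1 and 74.9) and SCAP (36.5 against 31.7 and 37.5) did not pass that fold in either clone. PMVK was higher, at 2.73 against 4.11 and 4.69. Cells with more METTL4 RNA in normoxia and cells with mutant METTL4 in hypoxia both had lower levels of SCD, INSIG1, HMGCS1, SQLE, DHCR7 and SREBF2 than their own controls, and the 2 experiments differ in oxygen.

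**Figure D3:**
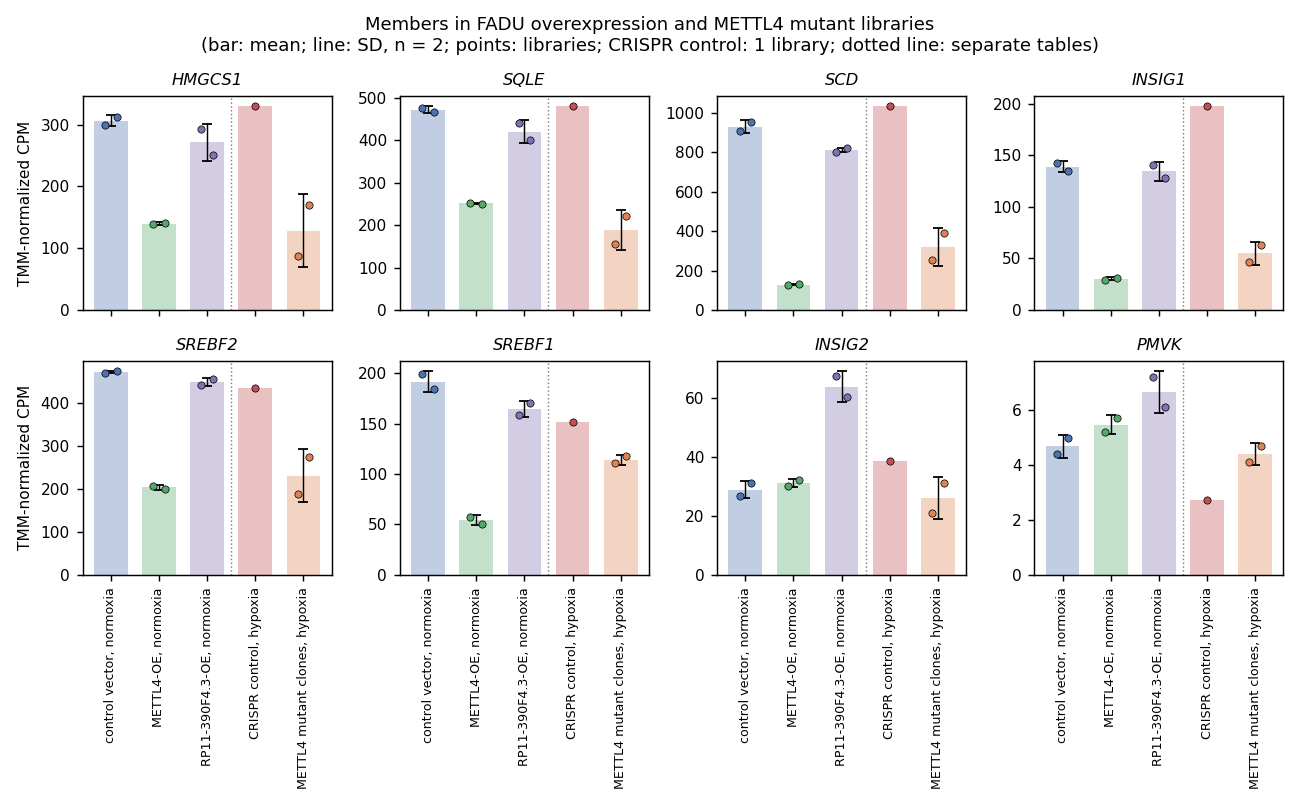
Values (TMM-normalized CPM, axes from 0) of 8 members in the FADU overexpression libraries in normoxia and the METTL4 mutant libraries in hypoxia, which come from tables normalized separately. Bars are means, lines the SD of n = 2, points single libraries, with 1 library for the CRISPR control. HMGCS1, SQLE, SCD, INSIG1 and SREBF2 were lower under METTL4-OE and in both clones than in their controls, and INSIG2 was higher under RP11-390F4.3-OE.

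**Figure D4:**
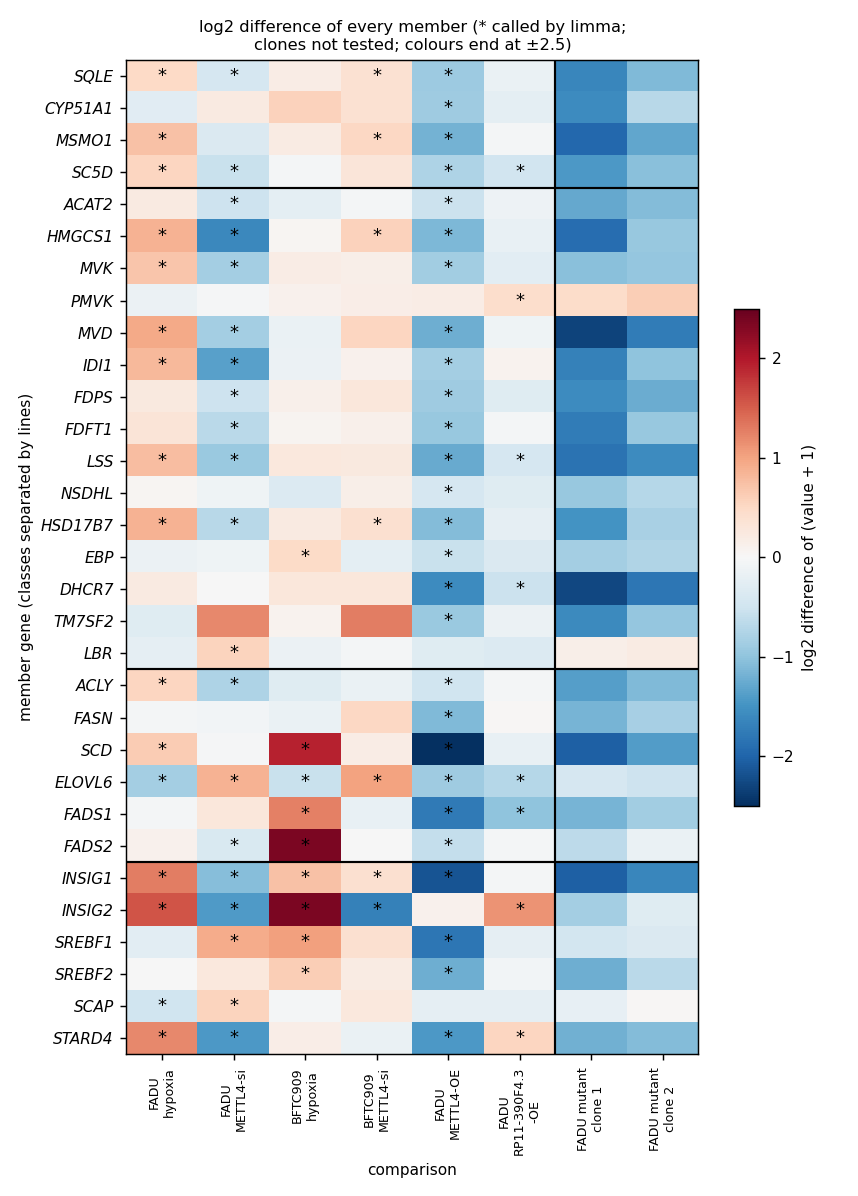
Log2 difference of (value + 1) of each of the 31 members (rows, classes separated by lines) in the 6 tested comparisons and the 2 mutant clones (columns). Stars mark members called by limma, the clones were not tested, and colours end at 2.5 in either direction. The METTL4-OE column has 27 stars, all on the lower side.

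Other genes of the pathway were counted from lists. Of 10 genes of LXR signalling, sterol efflux, uptake and esterification, 5 were called higher by limma under METTL4-si in FADU, beside 12.5% of all genes, and 6 of 9 tested in BFTC909, beside 13.2%. In both lines 0 were called lower, beside 15.3% of all genes in FADU and 11.7% in BFTC909, also at an unadjusted p under 0.05 and by edgeR. Without the 2 FADU libraries with luminal breast markers 4 of 9 tested were called higher, and without BFTC909 METTL4-si replicate 2 again 6 of 9. ABCA1, the cholesterol efflux pump, went from 9.79 and 8.67 to 44.9 and 47.9 in FADU (log2 difference 2.21 ± 0.17 SE, limma adjusted p = 0.00038). In BFTC909 it went from 81.5 and 80.7 to 156 and 137 (log2 difference 0.84 ± 0.08 SE). MYLIP, a ubiquitin ligase that acts in sterol uptake, went from 19.6 to 37.8 in FADU and from 8.37 to 14.8 in BFTC909, as means of 2 libraries. Under RP11-390F4.3-OE 3 genes of the list were called higher, NR1H2, ABCA1 (2.84 to 16.3) and ABCG1, beside 16.5% of all genes, and 3 were called lower, LPCAT3, SOAT1 and TMEM97, beside 12.5%. Without replicate 2 of that group the counts were 2 and 3 of 9 tested. METTL4-OE lowered 4 genes of this list, beside 10.5% of all genes, among them LPCAT3 (79.7 to 37.3). In the mutant clones 4 were lower in both clones, beside 11.8%.

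Of 16 other fatty acid and isoprenoid enzymes 8 were called lower under METTL4-OE, beside 10.5% of all genes. The count of higher genes was 0, beside 8.00% of all genes, also at an unadjusted p under 0.05 and by edgeR. ACSS2, which makes acetyl-CoA from acetate, went from 26.1 to 7.90 there (log2 difference -1.61 ± 0.08 SE). In FADU it went from 23.5 in normoxia to 56.8 in hypoxia and 27.4 under METTL4-si. In BFTC909 it went from 13.3 in Scr-si hypoxia to 34.7 under METTL4-si. These are group means, and those of FADU normoxia and of METTL4-si in both lines include libraries with markers of other cells. For the 16 enzymes the counts higher and lower were 3 and 1 in FADU hypoxia, 2 and 4 under FADU METTL4-si and 2 and 5 under RP11-390F4.3-OE. Of 15 tested in BFTC909 they were 4 and 2 in hypoxia and 3 and 0 under METTL4-si. The shares of all genes are those given above for each comparison. In the mutant clones 7 were lower in both, beside 11.8%, and 0 higher, beside 8.94%. Of the 10 genes of SREBP processing and sterol-regulated degradation 0 were called by limma in either direction under METTL4-OE, also at an unadjusted p under 0.05 and by edgeR. Of all genes 8.00% were called higher and 10.5% lower by limma in that comparison.

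The 250 bases before the start of each gene were searched in the RefSeq promoters (GRCh38.p14) for 28 of the 32 genes that have an entry, on both strands. The sterol regulatory motif TCACNCCA was in 3 of 28 (10.7%), beside 3.92% of 27305 genes. CCAAT, the box read by NF-Y, which works with SREBP at many promoters, was in 19 of 28 (67.9%), beside 37.0%. ACGTG, the core read by HIF and other factors, was in 8 of 28 (28.6%), beside 21.7%. A match is a description of letters and not a binding site. In the promoters shown, matches overlap only where CACGTG reads as ACGTG on both strands.

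Shown are 5 promoters, of the genes that the comparisons above turned on or that hold the sterol motif, with matches in capitals: for the strand given, TCACNCCA, CCAAT (or ATTGG) and ACGTG (or CACGT).
SREBF2, chr22:41832855-41833104, plus strand: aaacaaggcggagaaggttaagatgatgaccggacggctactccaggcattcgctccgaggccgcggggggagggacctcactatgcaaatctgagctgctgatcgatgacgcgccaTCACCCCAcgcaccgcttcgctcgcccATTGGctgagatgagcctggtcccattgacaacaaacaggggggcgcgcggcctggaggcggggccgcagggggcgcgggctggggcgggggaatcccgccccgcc
MSMO1, chr4:165327419-165327668, plus strand: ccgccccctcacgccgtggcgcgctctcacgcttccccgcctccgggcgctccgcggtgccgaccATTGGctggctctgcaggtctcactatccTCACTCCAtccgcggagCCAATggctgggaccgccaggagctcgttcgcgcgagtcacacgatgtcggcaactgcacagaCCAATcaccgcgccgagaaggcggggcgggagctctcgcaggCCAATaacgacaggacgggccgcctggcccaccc
INSIG1, chr7:155297628-155297877, plus strand: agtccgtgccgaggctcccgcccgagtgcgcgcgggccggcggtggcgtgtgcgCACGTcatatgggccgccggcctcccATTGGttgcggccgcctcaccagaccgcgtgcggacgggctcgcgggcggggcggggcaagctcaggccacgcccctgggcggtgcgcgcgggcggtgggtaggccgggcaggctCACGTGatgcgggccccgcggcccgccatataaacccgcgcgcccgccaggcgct
INSIG2, chr2:118088221-118088470, plus strand: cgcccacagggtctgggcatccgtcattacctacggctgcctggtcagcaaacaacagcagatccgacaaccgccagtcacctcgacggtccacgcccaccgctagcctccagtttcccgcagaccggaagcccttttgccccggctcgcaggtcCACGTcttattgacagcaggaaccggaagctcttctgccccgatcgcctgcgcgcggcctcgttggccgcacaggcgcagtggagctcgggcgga
SCD, chr10:100346983-100347232, plus strand: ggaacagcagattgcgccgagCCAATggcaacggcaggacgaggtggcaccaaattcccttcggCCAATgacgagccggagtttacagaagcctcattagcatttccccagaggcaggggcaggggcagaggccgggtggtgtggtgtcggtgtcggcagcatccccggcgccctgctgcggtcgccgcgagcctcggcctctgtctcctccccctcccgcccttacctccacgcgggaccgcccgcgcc
SREBF2 and MSMO1 hold the sterol motif together with CCAAT matches. INSIG1 holds the ACGTG core and a CCAAT match, INSIG2 the ACGTG core, and SCD a pair of CCAAT boxes. INSIG2, which rose in hypoxia in both lines, has neither the sterol motif nor a CCAAT box in this window.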

How the data were processed

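RNA-seq libraries were made from total RNA with a stranded kit after ribosomal RNA removal. Per the submitters' processing notes and the study's methods, Trim Galore, HISAT2 (build hg19), HTSeq and edgeR were used, with versions, counting settings and annotation not given in the sources used here. The authors deposited a normalized signal per gene and library, CPM scaled by TMM, in 4 separately scaled tables. In the 3 tables that were tested, 100% of values were whole reads within 0.1 read. Among the mutant libraries, rows that name no gene held 40.9% to 43.0% of the total and were left out, and the lowest gene had 10 reads. The authors' own comparison tables (log2 fold changes, F scores and p-values) were not used.

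Gene lengths and GRCh37 positions came from GENCODE, and symbols were paired with 18887, 16721, 17763 and 15308 identifiers of the 4 tables. limma 3.58.1 with the trend option was run on log2(value + 1) for genes that reached 1 in 2 or more libraries, with the 3 groups of a table sharing the spread and Benjamini-Hochberg adjustment over all genes. The scripts were tested on simulated data. Alternatives were edgeR 4.0.16 on whole reads (TMM and RLE factors), pseudocounts of 0.1 and 5, other filters, thresholds, scalings and fits, a replicate block and each library left out. Refits of the lists of other pathway genes without single libraries were chosen after seeing the data. The mutant table was not tested. Software was R 4.3.3, Python 3.11.15 and matplotlib 3.10.9. All members of the list were eligible to be named, and library values are given for only a part of the called members. IDI1, FDPS, HSD17B7, CYP51A1 and SCD have annotated pseudogenes that may share reads. HMGCS1, FDPS, ACAT2 and IDI1 overlap genes on the opposite strand, and the strand setting of the counting is not stated. The members and lists were chosen with earlier results of these data known.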

Additional observations from a re-analysis of the deposited data

Results flagged for a closer look

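Several members moved in opposite directions in FADU and BFTC909, with every library of one line above and every library of the other below its comparison group. The difference between the lines was not tested, because their values come from separately normalized tables. In what follows each gene has the FADU log2 difference minus the BFTC909 one, then both differences. For hypoxia against normoxia these were ACAT2 0.48 (0.23 and -0.25), MVD 1.12 (0.95 and -0.17), IDI1 0.95 (0.81 and -0.14), EBP -0.61 (-0.14 and 0.47), ACLY 0.84 (0.55 and -0.30), SREBF1 -1.28 (-0.25 and 1.02). MVD, IDI1 and ACLY were called in FADU, and EBP and SREBF1 in BFTC909.

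For METTL4-si against Scr-si in hypoxia the differences were SQLE -0.81 (-0.43 and 0.39), MSMO1 -0.87 (-0.36 and 0.51), SC5D -0.86 (-0.55 and 0.31), HMGCS1 -2.19 (-1.62 and 0.57), MVD -1.38 (-0.85 and 0.53), FDPS -0.78 (-0.51 and 0.27), FDFT1 -0.80 (-0.67 and 0.12), HSD17B7 -1.08 (-0.69 and 0.39), FADS1 0.47 (0.28 and -0.19), INSIG1 -1.46 (-1.06 and 0.40). SQLE, HMGCS1, HSD17B7 and INSIG1 were called in both lines, in opposite directions. MSMO1 was called in BFTC909 and SC5D, MVD, FDPS and FDFT1 in FADU, and FADS1 was called in neither. Replicate 1 of the FADU METTL4-si group and replicate 2 of the BFTC909 one hold markers of other cells, whose part in these values was not tested.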

How the results depend on the processing

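Of the refits and changes of threshold for single called members, 1548 kept the direction and the call, 139 kept the direction and lost the call, and 0 turned direction. The changes of threshold reuse the main difference, so they cannot turn direction. With an unadjusted p or no fold threshold they also cannot lose a call. With a 2-fold threshold the counts higher and lower were 3 and 0 for FADU hypoxia, 0 and 5 for FADU METTL4-si, 5 and 0 for BFTC909 hypoxia, 1 and 1 for BFTC909 METTL4-si, 0 and 13 for METTL4-OE and 1 and 0 for RP11-390F4.3-OE. With no fold threshold the lower count was 4 in BFTC909 hypoxia, 2 in BFTC909 METTL4-si and 15 in RP11-390F4.3-OE. Centring libraries on their median gave 3 higher in BFTC909 METTL4-si and 8 lower in RP11-390F4.3-OE, and shifted the median of all genes by less than 0.1. With each library left out in turn, FADU hypoxia had 6 to 14 higher and 1 to 2 lower, FADU METTL4-si 3 to 5 higher and 9 to 16 lower, BFTC909 hypoxia 8 to 9 higher and 1 to 2 lower, 2 without Scr-si hypoxia replicate 2, and BFTC909 METTL4-si 2 to 10 higher. METTL4-OE had 26 to 27 lower and RP11-390F4.3-OE 2 to 3 higher and 5 to 7 lower. The mutant median log2 ratio of -1.15 over both clones was -1.37 and -0.95 in the single clones (SD between clones 0.30). With a replicate block the counts were 14 and 2, 4 and 16, 9 and 1, 8 and 1, 0 and 27, and 3 and 5 in the order of the comparisons above. Replicate numbers are not stated to be pairs, and deviations of same-numbered libraries correlated at 0.65 between FADU normoxia and METTL4-si, whose replicates 1 hold luminal breast markers, and at -0.07 to 0.15 elsewhere. At 2 libraries per group, members with low values such as TM7SF2, PMVK and CYP51A1 have the widest errors.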
